A study of Paralichthys olivaceus with 6 samples.

Results

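Gonads of double haploid (DH) Japanese flounder females were compared here in 6 RNA-seq libraries, 3 from fertile and 3 from sterile fish, all 5 years old. The methods name 3 fish per group but also speak of pooled RNA samples, and what was pooled is not stated. Each library is treated below as a fish. The fertile ovaries were labelled stage Ⅴ and the sterile ovaries stage Ⅲ, so fertility and ovarian stage cannot be told apart. All fish were daughters of a single wild mother, made by mitogynogenesis, in which the chromosomes of a haploid egg are duplicated. The values describe *fam129bb*, *glod4*, *gnpda2* and *LOC100003996*, the 4 gene symbols whose unigenes (contigs of the study's merged assembly) were chosen by their symbol in the study's list of differentially expressed unigenes. Each symbol has 2 unigenes in that list, so there were 8 of the 52474 unigenes in the count table. They were picked because the study listed the unigenes of each gene for opposite directions between fertile and sterile fish, and because a sterile fish lay beside fertile fish. Differences between fertile and sterile gonads and the order of the fish are therefore given as a description, and calls of the members are not used as a test.

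A DH fish carries a single set of chromosomes in double dose, so that sisters can differ in the allele they hold at loci where the mother carried different alleles. A de novo assembly of several such sisters can hold more than 1 contig for a gene, and reads are then divided among the contigs by how well they match. Whether the paired unigenes of these 4 genes are alleles, gene copies or pieces of a transcript is not stated in the sources used here. The genes act in different processes. *gnpda2*, known from mammals, encodes an isomerase that turns glucosamine-6-phosphate into fructose-6-phosphate and so returns amino sugar to glycolysis. *LOC100003996*, which the study also matched to mouse *B3galt2*, would encode a galactosyltransferase that extends glycan chains. *fam129bb* belongs to the Niban family, described in human cells as restraining apoptosis, and *glod4* encodes a protein with a glyoxalase domain, the fold of the enzyme that clears methylglyoxal.

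The libraries are called F1, F2 and F3 (fertile) and S1, S4 and S5 (sterile). The numbers of S4 and S5 match no sample title, and these libraries were assigned to the sterile group by that letter alone, with an ending of the column name that the other 4 do not have. Total counts ranged from 25024469 to 35719683 per library. The clean reads that the paper gives rank its libraries in the same order, with its sterile S2 and S3 in the places of S4 and S5. That these are the same libraries is not stated in the sources used here. In S4 and S5, 28 unigenes had at least 5 counts each and 0 counts in the other 4 libraries. The same was not counted for other pairs of libraries. S4 and S5 also had the highest totals (35719683 and 33849156, with F2 next at 29040459), so the number cannot be judged. Symbols are available only for unigenes that the study listed as changed, so the tissue could be checked only on those. Ovarian somatic markers (*fshr*, *nr5a1b* and steroid enzymes, 10 unigenes) summed to between 28.4 and 50.7 CPM in fertile and between 9.92 and 15.4 CPM in sterile fish, and S4 had the lowest sum. In bulk gonad, fewer cells of a type and less RNA per cell cannot be told apart. CPM are counts scaled to library size after TMM, a correction for library composition. Unigene lengths are not in the table, so levels are compared between fish and not between unigenes.

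In all 4 genes the unigenes of a pair replaced each other from fish to fish while their sum varied less, as the choice of opposed pairs made likely. The unigene with the higher mean in fertile fish is called the fertile-side unigene, and its partner the sterile-side unigene. The share of the pair's counts in the fertile-side unigene ran from 8.64% in S5 (*gnpda2*) to 86.9% in F2 (*fam129bb*). This share does not depend on library size. In *fam129bb*, *gnpda2* and *LOC100003996*, F1 and F2 were high, F3 and S4 stood between, and S1 and S5 were low. In *glod4*, F1 stood with F3 and S4, and F2 alone was high. The sterile fish S4 thus lay beside the fertile fish F3 in every gene and apart from the sterile fish S1 and S5.

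**Figure D1:**
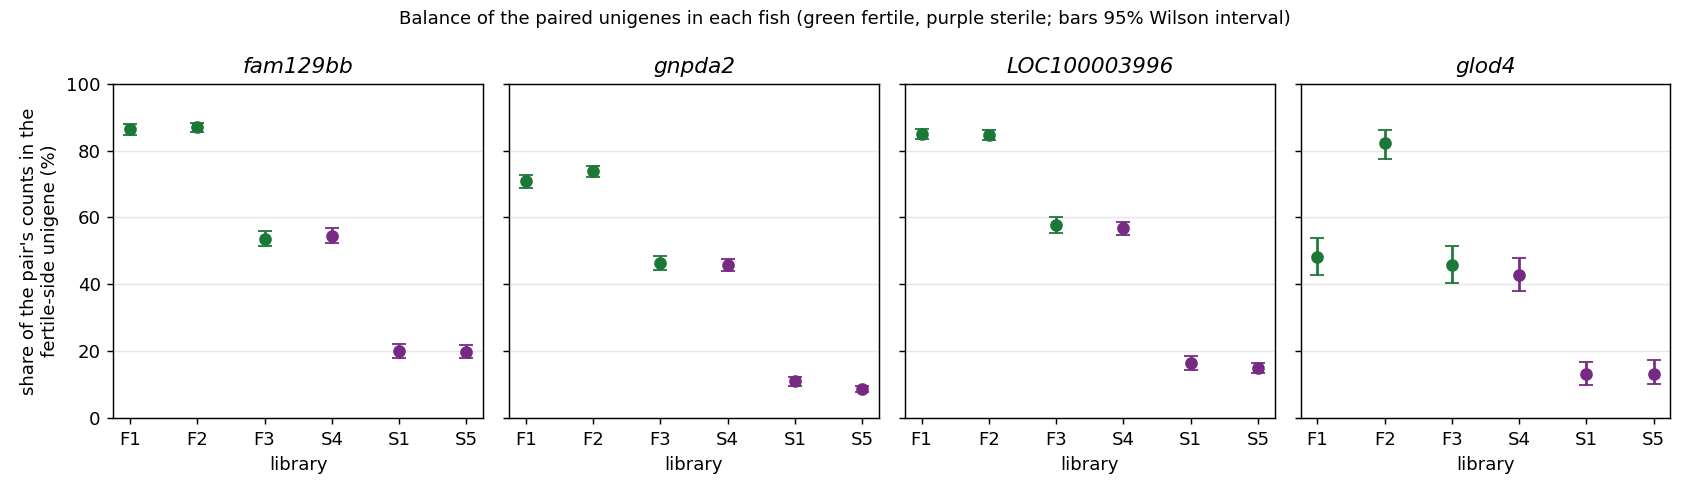
Share of the pair's counts held by the fertile-side unigene (%, vertical axis) in each library (horizontal axis) for the 4 genes, with 95% Wilson intervals as bars. F3 and S4 sit side by side between 42.8% and 57.7% in every gene, and S1 and S5 lie between 8.64% and 20.1%.

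For *fam129bb*, the fertile-side unigene (Contig4126) had 58.6, 61.8 and 36.9 CPM in F1, F2 and F3, and 11.3, 32.0 and 10.8 CPM in S1, S4 and S5. The fertile fish were all above the sterile fish, with S4 just below F3. The sterile-side unigene (Contig23439) had 9.27, 9.28 and 31.8 CPM in F1, F2 and F3, and 45.0, 26.7 and 43.4 CPM in S1, S4 and S5. Here F3 was above S4, so the groups overlapped. The share of the fertile-side unigene was 86.3% in F1 (95% Wilson interval 84.7 to 87.8), 86.9% in F2 (85.4 to 88.3), 53.7% in F3 (51.5 to 55.8), 54.6% in S4 (52.4 to 56.7), 20.1% in S1 (18.1 to 22.3) and 19.9% in S5 (18.0 to 21.9). The steps from F1 to S4 and from F3 to S1 were 31.8 and 33.6 percentage points, whereas neighbours inside the 3 levels differed by at most 0.890. These intervals cover counting error only, as reads without molecular identifiers are not independent molecules. The pair summed to 69.2 ± 1.67 CPM in the fertile group and to 56.4 ± 2.28 CPM in the sterile group (SD, n = 3 each). It was the only one of the 4 sums in which the groups did not overlap, and this held with plain CPM and RLE scaling. Of single tested unigenes, 21.9% had no overlap of the groups. The overlap of the *glod4* sums was narrow after TMM, with F1 and S4 both at 11.4 CPM.

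For *gnpda2*, the fertile-side unigene (Contig4265) had 56.0, 66.6 and 32.8 CPM in F1, F2 and F3, and 9.25, 37.6 and 9.38 CPM in S1, S4 and S5. S4 exceeded F3, and S1 and S5 were well below all other fish. The sterile-side unigene (Contig14174) had 23.1, 23.6 and 38.0 CPM in the fertile fish, and 74.8, 44.5 and 99.2 CPM in S1, S4 and S5. The groups did not overlap, with S4 nearest to the fertile fish. The share of the fertile-side unigene was 70.8% in F1 (95% Wilson interval 68.8 to 72.7), 73.8% in F2 (72.1 to 75.5), 46.3% in F3 (44.2 to 48.5), 45.8% in S4 (44.0 to 47.7), 11.0% in S1 (9.75 to 12.4) and 8.64% in S5 (7.73 to 9.64). S1 and S5 differed here by 2.37 percentage points, and their intervals did not overlap. The summed pair ranged from 70.8 CPM in F3 to 109 CPM in S5.

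For *LOC100003996*, the fertile-side unigene (Contig21769) had 67.5, 63.2 and 34.6 CPM in F1, F2 and F3, and 9.05, 42.3 and 9.25 CPM in S1, S4 and S5. As for *gnpda2*, S4 exceeded F3. The sterile-side unigene (Contig13484) had 12.0, 11.5 and 25.3 CPM in the fertile fish, and 46.1, 32.2 and 52.8 CPM in S1, S4 and S5, without overlap of the groups. The share of the fertile-side unigene was 84.9% in F1 (95% Wilson interval 83.3 to 86.3), 84.7% in F2 (83.1 to 86.1), 57.7% in F3 (55.4 to 60.0), 56.8% in S4 (54.9 to 58.7), 16.4% in S1 (14.6 to 18.5) and 14.9% in S5 (13.4 to 16.6). The distance from S4 to the nearest sterile fish, 40.4 percentage points, was the largest of the 4 genes, and that from S4 to F3 was 0.896. The summed pair ranged from 55.1 CPM in S1 to 79.5 CPM in F1.

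*glod4* was the least abundant, with 297 to 390 counts per pair and fish against 1395 to 3345 in the other genes, so its intervals are wider. Its fertile-side unigene (c6462_g1_i1_1634_4660) had 5.49, 8.27 and 4.73 CPM in F1, F2 and F3, and 1.94, 4.87 and 1.56 CPM in S1, S4 and S5. S4 lay between F3 and F1. The sterile-side unigene (Contig16944) had 5.90, 1.80 and 5.59 CPM in the fertile fish, and 12.8, 6.51 and 10.1 CPM in S1, S4 and S5, so that F2 stood alone at the low end. The share of the fertile-side unigene was 48.2% in F1 (95% Wilson interval 42.7 to 53.8), 82.2% in F2 (77.4 to 86.1), 45.8% in F3 (40.3 to 51.4), 42.8% in S4 (38.0 to 47.8), 13.1% in S1 (10.1 to 16.9) and 13.4% in S5 (10.2 to 17.3). F1 was 33.9 percentage points below F2, although the same fish differed by at most 3.04 points in the other 3 genes. The summed pair ranged from 10.1 CPM in F2 to 14.8 CPM in S1.

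**Figure D2:**
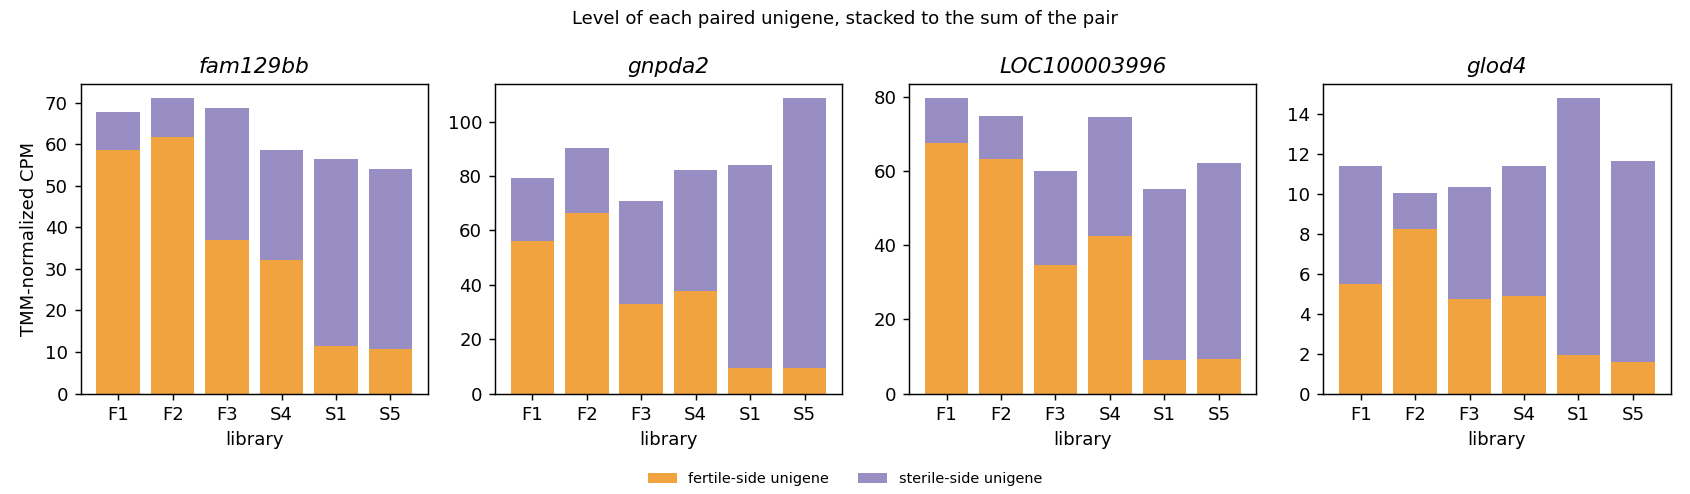
TMM-normalized CPM (vertical axis) of the fertile-side unigene (orange) and the sterile-side unigene (violet), stacked to the sum of the pair, in each library (horizontal axis) of the 4 genes. The bars keep a similar height while the orange part shrinks from F1 and F2 to S1 and S5, as in *LOC100003996* from 67.5 CPM in F1 to 9.05 CPM in S1.

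Single unigenes varied several-fold between fish and their sums did not. The pairs were picked for opposite directions in these fish, so a narrower range of the sum was largely built in. The highest over the lowest fish was between 4.29 and 7.46 for the 8 unigenes. For the sums it was 1.31 in *fam129bb*, 1.44 in *LOC100003996*, 1.47 in *glod4* and 1.53 in *gnpda2*. The median of this ratio over all 35787 unigenes tested was 1.51, and over the 15224 with a mean CPM in the range of the 8 members it was 1.34. The sums of *LOC100003996*, *glod4* and *gnpda2* thus varied more than the median of that range, and that of *fam129bb* slightly less. The range was set by single members, and of the sums only that of *glod4* lay inside it. The other sums lay above it and were not compared with unigenes of like abundance. In each gene the unigenes of the pair ordered the fish oppositely in 12 of the 15 pairs of fish. The 3 pairs that were not mirrored lay inside the levels described above, such as F1 and F2, F3 and S4, and S1 and S5 for *gnpda2*. Between fertile and sterile fish, the log2 fold change (fertile over sterile) of the sum was 0.29 (standard error 0.07) for *fam129bb*, 0.16 (0.14) for *LOC100003996*, -0.20 (0.13) for *gnpda2* and -0.25 (0.13) for *glod4*.

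**Figure D3:**
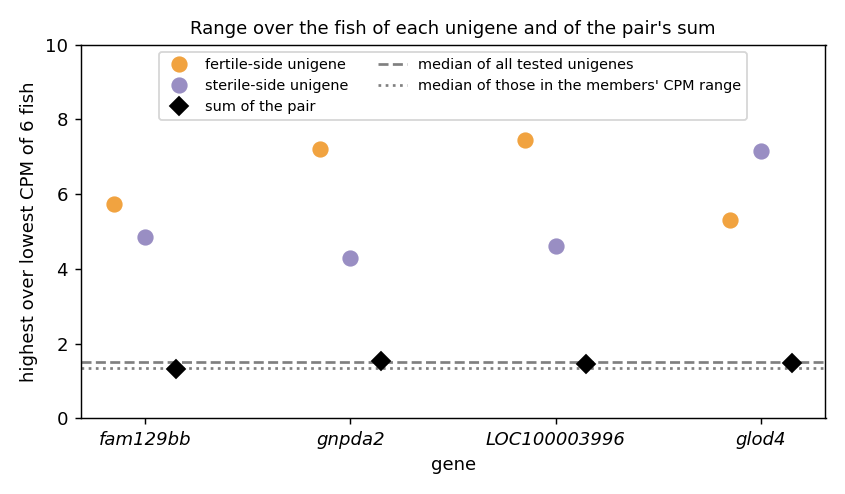
Highest over lowest CPM of the 6 fish (vertical axis) for each fertile-side unigene (orange), each sterile-side unigene (violet) and each summed pair (black diamonds) by gene. The sums, from 1.31 to 1.53, lie near the medians of all tested unigenes (dashed, 1.51) and of those in the members' CPM range (dotted, 1.34); 3 of the 4 exceed the dotted line, and the unigenes lie at 4.29 or above.

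The fish order was largely common to the 4 genes, as their choice made likely. Expressed as the log2 ratio of the fertile-side to the sterile-side unigene with 0.5 counts added, the balance ran from -2.01 to 2.73 in *fam129bb*, from -2.51 to 2.49 in *LOC100003996* and from -2.72 to 2.19 in *glod4*, and spanned 4.90 in *gnpda2*. In 12 of 15 pairs of fish all 4 genes gave the same order. The exceptions were F1 against F2, where *LOC100003996* was the gene higher in F1, F3 against S4, where *fam129bb* was higher in S4, and S1 against S5, where *glod4* was higher in S5. The genes were picked for the place of S4, and the sides were set by the fertile and sterile means. The agreement was therefore largely built in and is no independent result. It also counts F1 above F3 in *glod4*, a gap of 2.40 percentage points with overlapping intervals. The Wilson intervals of F3 and S4 overlapped in all 4 genes, those of S1 and S5 in 3 (not *gnpda2*) and those of F1 and F2 in 3 (not *glod4*). Overlap does not mean that the fish had the same balance, nor that a difference could not be detected, as the differences were not tested. Fertile and sterile balances overlapped in 1 of the 4 genes, *fam129bb*, where S4 was 0.890 percentage points above F3. In the other 3 genes S4 was below F3 by 0.521 to 2.99 points, a gap within the overlap of their intervals. Without F3 or without S4, the groups overlapped in 0 of the 4 genes.

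By single unigenes, S1 and S5 were both below or both above the other 4 libraries in all 8 members, a pattern found in 20.0% of the tested unigenes. The finer order of F1 and F2, then F3 and S4, then S1 and S5 was followed by 7 members, all but Contig16944 of *glod4*, and by 4.72% of the tested unigenes. Fertile and sterile fish did not overlap in 4 members, and in 21.9% of the tested unigenes. The members were chosen for this order, so these shares are given only as background.

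All 8 members passed the low-count filter. The fertile-side unigenes had log2 fold changes (fertile over sterile) of 1.53 for *fam129bb* (standard error 0.40), 1.46 for *gnpda2* (0.52), 1.44 for *LOC100003996* (0.56) and 1.12 for *glod4* (0.40). The sterile-side unigenes had -1.42 for *LOC100003996* (0.31), -1.37 for *gnpda2* (0.29), -1.19 for *fam129bb* (0.45) and -1.14 for *glod4* (0.40). A call needed more than a 2-fold difference and an adjusted *p* below 0.05. The quasi-likelihood test of edgeR called 0 of the 8, against 0.137% of all tested unigenes, made up of 0.0810% with a higher level in fertile and 0.0559% with a higher level in sterile gonads. All 8 were at an unadjusted *p* under 0.05 in the quasi-likelihood test. They were chosen by this same contrast on these fish, so neither this nor any call of a member is support for a difference. The calls are given only to show how they depend on the method and the fish. DESeq2 called Contig14174 and Contig13484 (0.824% of all tested unigenes), edgeR's exact test called these and Contig4126 (1.49%), and limma-voom called 0 (0.0671%). Without S4, where 0.0914% of all tested unigenes were called, the fertile-side unigenes of *fam129bb*, *gnpda2* and *LOC100003996* were called, with log2 fold changes of 2.25, 2.47 and 2.59. Without F3, where 0.192% were called, the sterile-side unigenes of *fam129bb* and *LOC100003996* were called, with -2.05 and -1.89.

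Among the other symbols in the study's list, 12 also have tested unigenes with log2 fold changes of both signs, among them *pld3*, *vezf1b*, *bcl2l1* and *slc35c2*. Their shares also came at separate levels. In 3 of them, *LOC100003937*, *pld3* and *vezf1b*, S4 was likewise the highest sterile fish with S1 and S5 below it, and *LOC100003937* and *vezf1b* followed the order of *gnpda2*, so the rank order was not particular to the 4 genes. The distances differed. In all 12, the share of S4 was within 3.35 percentage points of another sterile fish, whereas it was 29.5 to 40.4 points from the nearest sterile fish in *fam129bb*, *glod4*, *gnpda2* and *LOC100003996*. The fertile and sterile fish did not overlap in any of the 12. These symbols come from the study's list for this contrast, and their sides were set by the sign of the fold change. Their separation was thus largely built in and is no independent result. In 6 of them S5 stood more than 10 points above S1 and S4, as in *arfgef2*, at 50.5% against 24.9% in S1 and 25.7% in S4. In 3 of them F1 stood more than 10 points below F2 and F3, as in *eftud1*, at 15.5% against 71.2% in F2 and 71.5% in F3. No test of this difference was made, because the 4 genes were chosen for the place of S4.

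**Figure D4:**
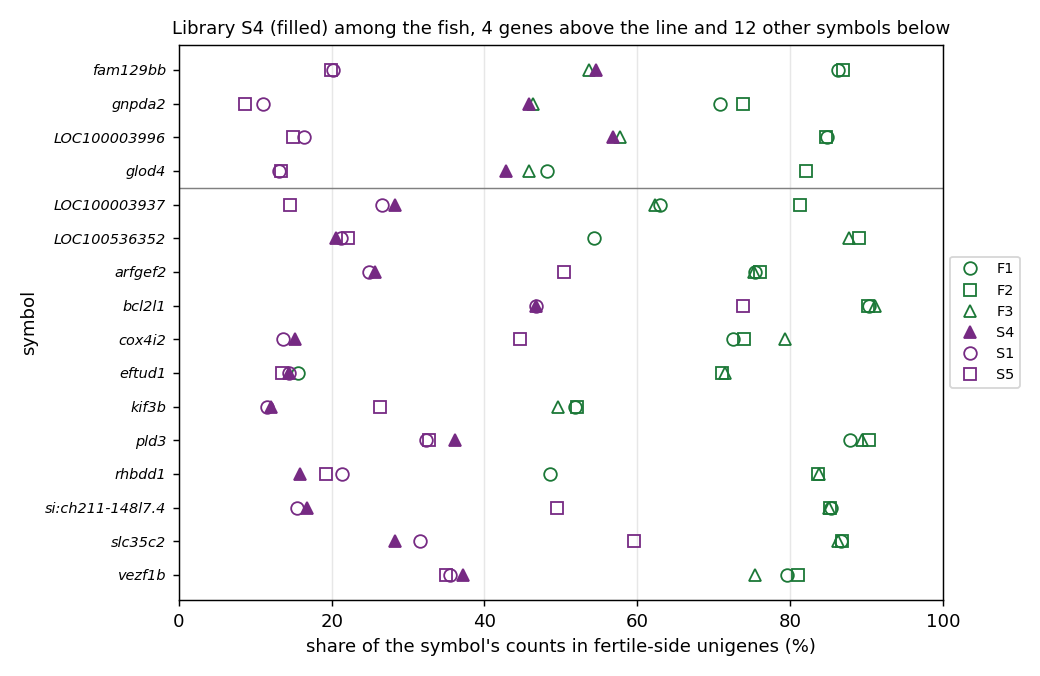
Share of a symbol's counts in its fertile-side unigenes (%, horizontal axis) for the 4 genes (above the line) and 12 other symbols with unigenes of both signs (below), 1 marker per library, fertile in green and sterile in purple. The filled marker of S4 lies beside F3 in the upper 4 rows and within 3.35 percentage points of S1 or S5 in the other 12.

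Leukocyte markers followed a like order of the fish. The list of 17 unigenes from 10 genes, which include the integrin chain *itgb2*, *spi1b* and *csf1ra*, summed to 56.9, 57.4 and 74.2 CPM in F1, F2 and F3, and to 95.8, 145 and 191 CPM in S4, S1 and S5. S4 was thus the sterile fish nearest to the fertile fish in these markers as well, and their part in the balance of the 4 genes was not tested. Of the 13 tested, the quasi-likelihood test of edgeR called 1, *mpx* (a peroxidase of neutrophils), which was higher in fertile fish. The median log2 fold change was -1.31 over the list and -0.01 over all tested unigenes. The study had listed these markers as changed by more than 2-fold on these same fish, so the size of the list's median was largely built in. DESeq2 called 3 with a higher level in fertile gonads, all of *mpx*, and 5 with a higher level in sterile gonads, of *itgb2*, *spi1b*, *csf1ra* and *cd74a*. The exact test called 3 and 8, and limma-voom 0. *mpx* was no longer called by the quasi-likelihood test when S1, S4 or S5 was left out, and without S4 2 unigenes of *cd74a* (named after their values were seen) were called, higher in sterile gonads. In all fertile fish, 2 unigenes of *cd74a* were at 0 counts, and no other marker of the list was. Muscle markers (4 unigenes of *sgcg* and *ryr3*) summed to between 0.915 and 1.63 CPM in fertile fish and to 2.74 CPM in S4, 4.07 in S1 and 3.18 in S5. The ovarian somatic markers put S4 lowest of the sterile fish (9.92 CPM, against 14.8 in S1 and 15.4 in S5). *spo11* and *sycp3* of meiotic germ cells were at 0.292 CPM in S4, 0.237 in S1 and 0.260 in S5 against 0.733 to 1.08 in fertile fish. Pearson's *r* across the 6 fish between the mean log2(CPM + 1) of a list and the mean balance of the 4 genes was -0.90 for leukocytes and -0.95 for muscle. It was 0.79 for ovarian somatic cells, 0.89 for meiotic germ cells, -0.59 for exocrine pancreas and -0.29 for *ba1l*. All these markers came from the study's list for the same contrast that set the sides of the balance. An *r* of some size was therefore partly built in and is no independent result. Exocrine pancreas markers were at 8.84 CPM in S4 and 12.8 in S5 against 2.93 in S1, and the globin *ba1l* at 7.65 and 3.57 against 0.119.

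Genes of neighbouring pathways were examined on lists of symbols, all of which the study had chosen on these same fish. The study had listed them as changed by more than 2-fold, so the size of each median and the calls were largely built in. Over all tested unigenes the median log2 fold change was -0.01, and the quasi-likelihood test called 0.137%. Of 13 unigenes for sugar uptake and central sugar metabolism, the pathway that receives the product of *gnpda2*, 5 were tested and the quasi-likelihood test called 1, with a higher level in sterile gonads and a median log2 fold change of -1.08. The called unigene was *pkmb*, a pyruvate kinase of glycolysis, at 0.0237 ± 0.0205 CPM in fertile fish and 0.489 ± 0.130 CPM in the sterile group (SD, n = 3 each). Its log2 fold change of -4.19 had a standard error of 0.61 and, by edgeR, an adjusted *p* of 0.0485, and it was no longer called whichever fish was left out. At so low a fertile level, *pkmb* passed the low-count filter only through the sterile fish, where it was higher. Its fold change rests on very low counts in fertile fish, and its call is no support for a difference. Without F3, when 10 of the list were tested, 2 unigenes of *pck1* were called instead, higher in fertile gonads. DESeq2 called 2 in each direction, the exact test 2 in fertile and 3 in sterile gonads, and limma-voom 0. In all sterile fish 3 unigenes of the list were at 0 counts. Of 9 unigenes of glycan and sulfate donor enzymes, the setting of *LOC100003996*, all were tested, 1 was called higher in fertile gonads and 2 in sterile gonads, with a median of -1.06. In fertile gonads this was *papss2b*, which makes the sulfate donor, at 14.2 ± 4.86 CPM against 2.10 ± 0.378 CPM in sterile gonads (SD, n = 3 each). In sterile gonads *dpm1*, a subunit of the enzyme that makes dolichol-phosphate mannose, was at 32.1 ± 7.39 CPM against 10.8 ± 0.449 CPM, and the other was a unigene of *slc35c2*, named after its values were seen. The *slc35c2* call was lost without F2 or S1, and that of *dpm1* without F2. Without S5 the calls with a higher level in fertile gonads numbered 3, of *papss2b* and of other unigenes of *slc35c2*. DESeq2 called 3 in fertile and 2 in sterile gonads, the exact test 3 and 4, and limma-voom 1 and 1. With DESeq2 and the exact test, unigenes of *slc35c2* were called in both directions. Of 8 unigenes for glutathione and aldehyde or peroxide handling, the setting of the glyoxalase domain, 7 were tested and 0 were called by edgeR's quasi-likelihood test, with a median of -1.11 (7 had an unadjusted *p* below 0.05). The smallest adjusted *p* in that test belonged to 2 unigenes of *cth*, with log2 fold changes of 1.09 and 1.01. DESeq2 and the exact test of edgeR each called these 2, higher in fertile gonads, and 1 unigene higher in sterile gonads, against 0 with limma-voom. Summed CPM of the sugar list was 23.2, 37.4 and 27.1 in F1, F2 and F3 and 42.5, 32.1 and 43.4 in S1, S4 and S5. S4 lay inside the fertile range, with S1 and S5 above it. F1 and F2, together in the balance of *fam129bb*, *gnpda2* and *LOC100003996*, were here the lowest and the highest fertile fish. The mean log2(CPM + 1) of the list rose with the mean balance (Pearson's *r* 0.72), whereas the sum was highest in S1 and S5. The sums of the other lists had S4 at 75.2 CPM between S1 (82.1) and S5 (70.1) for glycan enzymes, and at 12.3 CPM below all other fish for the glutathione list.

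The unigenes most like the 4 genes were sought by Pearson's *r* across the 6 fish between log2(CPM + 1) and the mean standardized balance. This is a description over 6 points that share their libraries. At an *r* of 0.95 or above in size there were 388 of 35787 unigenes (1.08%), 191 of them with and 197 against the balance, and 6 of the 8 members, which made the pattern, were among them. Of other unigenes with a symbol, the closest in the same direction were both unigenes of *fbln2* (fibulin, an extracellular matrix protein) at 0.94, *LOC564555* at 0.93 and *slc4a4a* (a sodium bicarbonate cotransporter) at 0.93. *LOC564555* and *slc4a4a* were low, with at most 0.779 and 0.813 CPM (both in F2). Among the closest in the opposite direction were *xm_003200698.1*, *ccr12.3* (a chemokine receptor) and *si:ch211-245h14.1*, all at -0.99. These too were low, at 0.169 to 0.779, 0.742 to 3.15 and 0.203 to 1.14 CPM over the fish. Unigenes without a symbol came closest, namely Contig19693 (0.998) and Contig3320 (0.997) with the balance and Contig22071 and Contig20719 (both -0.997) against it. Contig3320 had 235, 249 and 169 CPM in F1, F2 and F3 and 107, 174 and 102 CPM in S1, S4 and S5. Contig19693 varied little, from 87.7 CPM in S5 to 108 CPM in F2.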

How the data were processed

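Per the methods, the authors filtered the reads, assembled each library with Trinity, merged the contigs with CAP3 and matched the unigenes by tBlastx to zebrafish, mouse and human transcripts. Mapping was by BWA, version 0.7.8-r455 per the submitters' processing notes. The deposited values are raw counts for each unigene, which the methods credit to Picard and the notes to HTSeq. How reads matching several unigenes, or strand, were handled is not stated in the sources used here. Columns F1, F2, F3 and S1 carry sample titles, and 0 sample columns were left unused.

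Counts were analysed in R 4.3.3 with edgeR 4.0.16 (TMM, default filterByExpr, quasi-likelihood test, Benjamini-Hochberg adjustment over 35787 unigenes), and pairs were summed before a second fit. Shares have Wilson intervals (scipy 1.17.1). DESeq2 1.42.0, limma 3.58.1, other filters and scalings, and each fish left out were alternatives. Leaving out S4 and S5 together was added after seeing the data. Named unigenes were the 8 members, the 4 symbols most like and the 4 most unlike the balance (1 of the latter is not reported here), at most 2 without a symbol per direction, and per list at most 2 with the smallest adjusted *p*. The members and lists were chosen with earlier results of these data known. The labels and methods describe libraries made from pooled RNA samples, so each library may hold more than a single extraction. Standard errors were derived from the fold change and the statistic of the quasi-likelihood test, whose estimate of spread draws on all tested unigenes. They describe only these libraries. Of the 4 symbols, 1 (*glod4*) and 0 unigene identifiers were in the RefSeq gene table, so neighbouring genes were not examined and no sequence is shown.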

Additional observations from a re-analysis of the deposited data

How the results depend on the processing

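The 8 members and 4 sums kept the sign of their log2 fold change in all alternatives run. The number of called unigenes was 49 in edgeR's quasi-likelihood test, 79 without a low-count filter, 295 with DESeq2, 533 with edgeR's exact test, 24 with limma-voom and 27 with same-symbol unigenes summed. With 1 fish left out it ranged from 34 (without S4) to 97 (without F1), and was 89 without S5. The cause was not tested. The overlap of fertile and sterile balances, seen in 1 gene, ranged from 0 (without F3 or S4) to 1 with 1 fish left out, and was in 0 genes without S4 and S5 together, where S1 is the only sterile fish and is assumed to vary like the fertile fish in the fit. The size of the members' log2 fold changes depended on which fish was left out. Without S4, *glod4* c6462_g1_i1_1634_4660 went from 1.12 to 1.82, and without F2, *glod4* Contig16944 went from -1.14 to -0.76. The fold change of the summed *glod4* pair was -0.48 without S4 and S5 together and -0.11 without S1, that of *gnpda2* -0.05 without S5, and that of *LOC100003996* 0.37 without S4 and S5 together and 0.07 without S1. Unigenes at an *r* of 0.95 or above in size numbered 349 to 445 under the alternatives, of which 111 (Spearman's rank correlation) to 372 (a pseudocount of 0.1) were shared. No paired analysis was possible because the columns of the groups share only the number 1. The small counts of *glod4* limit how finely its levels can be told apart.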
